A study of Homo sapiens with 66 samples.

Results

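RNA from motor neuron cultures (hMNs) at day 6 (hMN-D6) and at day 30 (hMN-D30) of differentiation was compared across all genes, with 3 libraries on each side out of 66 libraries in 22 groups in the series. The members of the comparison are these 6 libraries, chosen by their labels. All came from the H9 human embryonic stem cell line with wild-type (WT) genotype, and both groups were made in the same way from spinal cord neural progenitor cells (hSCNPCs), in N2B27 medium with Purmorphamine, a small molecule that activates Smoothened in the sonic hedgehog pathway, Compound E, a gamma-secretase inhibitor that blocks Notch cleavage, and the growth factors BDNF, GDNF and NT-3, on poly-D-lysine and Matrigel. The groups differ in the day of collection, and age of the culture cannot be told apart from days spent in that medium. The cultures were bulk samples of a single line, and nothing in the labels says whether the 3 libraries of a day came from separate cultures, so the p-values may measure technical spread only. Expression is given as CPM, counts per 1000000 after TMM scaling of the libraries, and a log2 fold change is that of hMN-D30 against hMN-D6 from edgeR's quasi-likelihood model, with its standard error (SE) and a p-value adjusted by the Benjamini-Hochberg method over all genes tested. In a bulk sample, fewer cells of a type and less RNA per cell cannot be told apart.

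Spinal motor neurons leave the cell cycle, switch off progenitor and proneural transcription factors, and then build the machinery of an excitable cell over weeks: voltage-gated channels that carry the action potential, receptors for glutamate, GABA and glycine, and the release apparatus of the synapse. Their defining genes include the homeodomain factors MNX1 and ISL1, which set the fate, and CHAT and SLC18A3, which make acetylcholine and load it into vesicles. GABA excites young neurons and inhibits older ones, a change that follows the balance of the chloride transporters SLC12A2 and SLC12A5.

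Values after ± are the SD of 3 libraries beside a CPM and the SE beside a log2 fold change, and values per library are given in the order of replicates 1, 2 and 3. Of 21175 genes tested, 13427 (63.4%) differed between the days at an adjusted p under 0.05, of which 6976 (32.9%) were higher and 6451 (30.5%) lower in hMN-D30. The shares of 32.9% and 30.5% stand beside the count of every gene list below. The median log2 fold change of all tested genes was 0.023. TMM scaling holds this median near 0, so it does not bear on a shift in total RNA between the days. The picture was less even among larger changes. For a change shown to be over 2-fold by edgeR's glmTreat, 1629 genes (7.69%) were higher and 885 (4.18%) lower, and 353 of the called genes were over 8-fold higher against 151 that were over 8-fold lower. Protein-coding genes were called more often (71.4% of 14791) than long noncoding RNAs (47% of 4035), without a test of that difference. For 34.7% of tested genes every hMN-D30 library lay above every hMN-D6 library, and for 32.3% every one lay below.

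**Figure D1:**
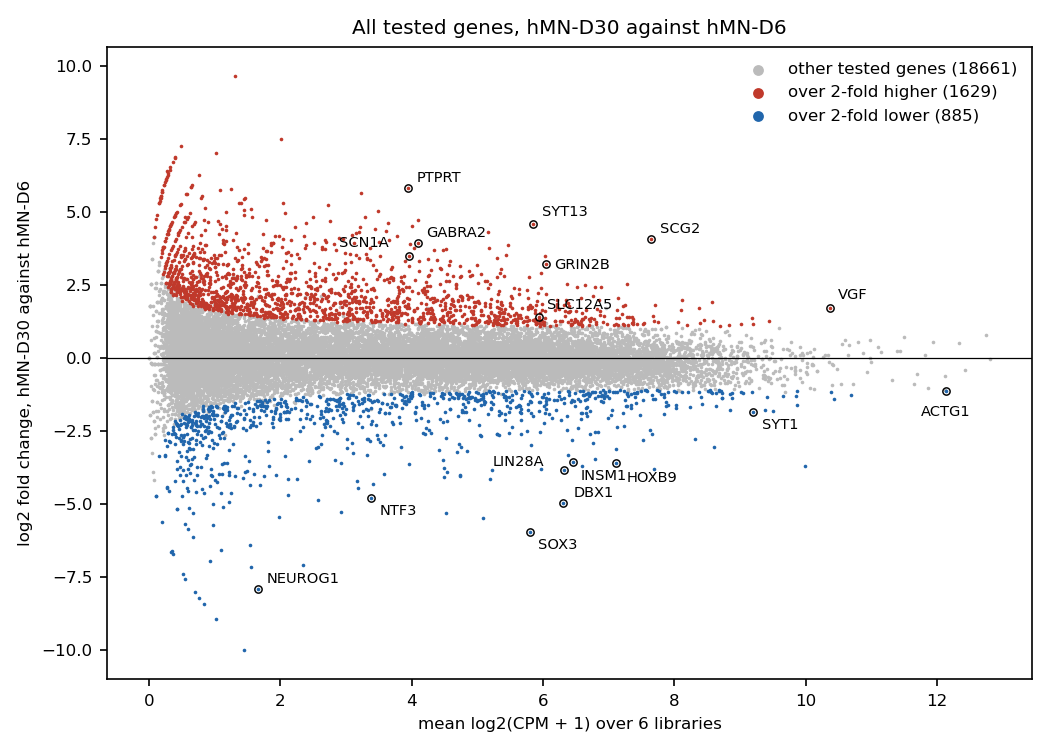
Log2 fold change of hMN-D30 against hMN-D6 (vertical axis) against the mean log2(CPM + 1) over the 6 libraries (horizontal axis) for the 21175 tested genes. Red points are the 1629 genes over 2-fold higher, blue points the 885 genes over 2-fold lower by glmTreat, grey points all others, and labels mark genes described in the text. VGF is the red point furthest to the right, and blue points reach further, to ACTG1.

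Total counts of the 6 libraries ran from 16730486 to 21970272. The root mean square distance in log2 CPM was 0.376 to 0.421 between hMN-D6 libraries, 0.354 to 0.370 between hMN-D30 libraries and 0.963 to 1.01 across the days, so the days stood further apart than the libraries of a day. Mitochondrial genes took 3.61 ± 0.142% of counts in hMN-D6 and 5.21 ± 0.517% in hMN-D30 (SD, n = 3), and ribosomal protein genes 2.96 ± 0.25% and 1.66 ± 0.0308% (exact permutation test, two-sided, p = 0.1 for each, the smallest p that 3 against 3 can give). hMN-D30 replicate 3 stood apart from the other hMN-D30 libraries in mesenchymal genes, and those genes are given with and without it.

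The label of motor neurons was checked first. MNX1, the defining homeodomain factor of motor neurons, had 3.72, 3.77 and 4.54 CPM in hMN-D6 and 4.36, 4.09 and 4.02 CPM in hMN-D30, an overlap of the groups (log2 fold change 0.05, SE 0.16, adjusted p = 0.796). ISL1, which acts with LHX3 in motor neuron specification, rose from 5.98, 7.17 and 6.88 CPM to 21.3, 20.03 and 19.2 CPM (log2 fold change 1.59, SE 0.10, adjusted p = 6.55e-19). LHX3 (ENSG00000107187) went the other way, from 12.4, 12.1 and 12.3 CPM to 0.6099, 0.863 and 0.615 CPM (log2 fold change -4.13, SE 0.18, adjusted p = 2.53e-25). These 3 homeodomain factors thus went separate ways, ISL1 up, LHX3 down and MNX1 without a detected change. CHAT, choline acetyltransferase, stood at 1.59, 1.44 and 1.97 CPM in hMN-D6 and 3.66, 4.41 and 3.45 CPM in hMN-D30 (log2 fold change 1.204), low on both days with every hMN-D30 library above every hMN-D6 library. The vesicular acetylcholine transporter SLC18A3 (22.3 ± 0.517 to 40.5 ± 2.36 CPM, log2 fold change 0.86) and the choline transporter SLC5A7 (29.6 ± 1.53 to 47.7 ± 1.29 CPM, log2 fold change 0.69) also rose. So did acetylcholinesterase, ACHE (65.5 ± 2.03 to 203 ± 6.69 CPM, log2 fold change 1.63). Other genes on the list of cholinergic and neuromuscular genes were mixed. VAMP1 (12.3 to 24.6 CPM) and SLC44A1 (12.5 to 18.2 CPM) rose. AGRN (666 to 377 CPM), NRG1 (178 to 155 CPM), SYT2 (96.5 to 64.2 CPM) and BCHE (16.7 to 14.1 CPM) fell. SLC10A4 was not called (7.62 and 8.22 CPM). In CPM per kilobase of exon, MNX1 lay at 0.951 and 0.986 on the 2 days and ISL1 at 2.37 and 7.16. SOX14, a factor of V2 interneurons, lay at 27.6 and 23.9 on that scale. Thus the motor neuron markers were measured in all 6 libraries, and SOX14 was above MNX1 and ISL1 per length on both days. No V2 identity of the cultures follows from this single gene. The V2b factors GATA2 and GATA3, given below, were under MNX1 and ISL1 in mean CPM in hMN-D6. In hMN-D30 both lay above MNX1 and under ISL1. Other genes not specific to motor neurons were also above MNX1 in mean CPM on both days. DBX1, of p0 progenitors, had 428 CPM in hMN-D6 and 13.7 CPM in hMN-D30. GAD1, which makes GABA, had 27.02 and 46.8 CPM, above ISL1 and CHAT and between SLC18A3 and SLC5A7 on both days. The share of motor neurons in the cultures was not tested.

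Of 24 tested transcription factors of motor neuron identity and columns, 8 were higher and 12 lower in hMN-D30, beside 32.9% and 30.5% of all tested genes, with a median log2 fold change of -0.34 (-0.58 with a filter at 1 CPM and -0.46 without hMN-D30 replicate 3). EBF2, a helix-loop-helix factor of newborn neurons, had the largest fall, from 18.4, 20.5 and 20.8 CPM to 0.566, 0.772 and 0.7095 CPM. Within the ONECUT family of early-born neurons, ONECUT2 fell from 1601 ± 111 to 775 ± 2.68 CPM and ONECUT1 from 304 to 156 CPM, while ONECUT3 rose from 285 ± 13.4 to 605 ± 15.98 CPM (1.09 ± 0.041 on the log2 scale). Those directions within the family were opposite, with no overlap of libraries in any of the 3 genes. FOXP1, which marks limb-innervating columns, had 8.17 and 8.401 CPM on the 2 days (adjusted p = 0.812). ISL2 rose from 3.52 to 7.44 CPM and FOXP2 from 9.71 to 23.2 CPM. Of 18 tested genes of mature motor neuron subtypes, 9 were higher and 7 lower, beside the same 32.9% and 30.5%. CHRM2, the muscarinic receptor M2, rose from 1.77, 1.96 and 0.747 CPM to 35.5, 32.8 and 34.4 CPM, and ESRRG, a nuclear receptor of gamma motor neurons, fell from 124 ± 3.48 to 33.5 ± 1.19 CPM. SV2B, a synaptic vesicle protein of slow motor neurons, had no count in any hMN-D6 library and 5.05, 4.996 and 5.34 CPM in hMN-D30, at least 97-fold higher when a floor of 3 counts over the 3 hMN-D6 libraries is used.

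**Figure D2:**
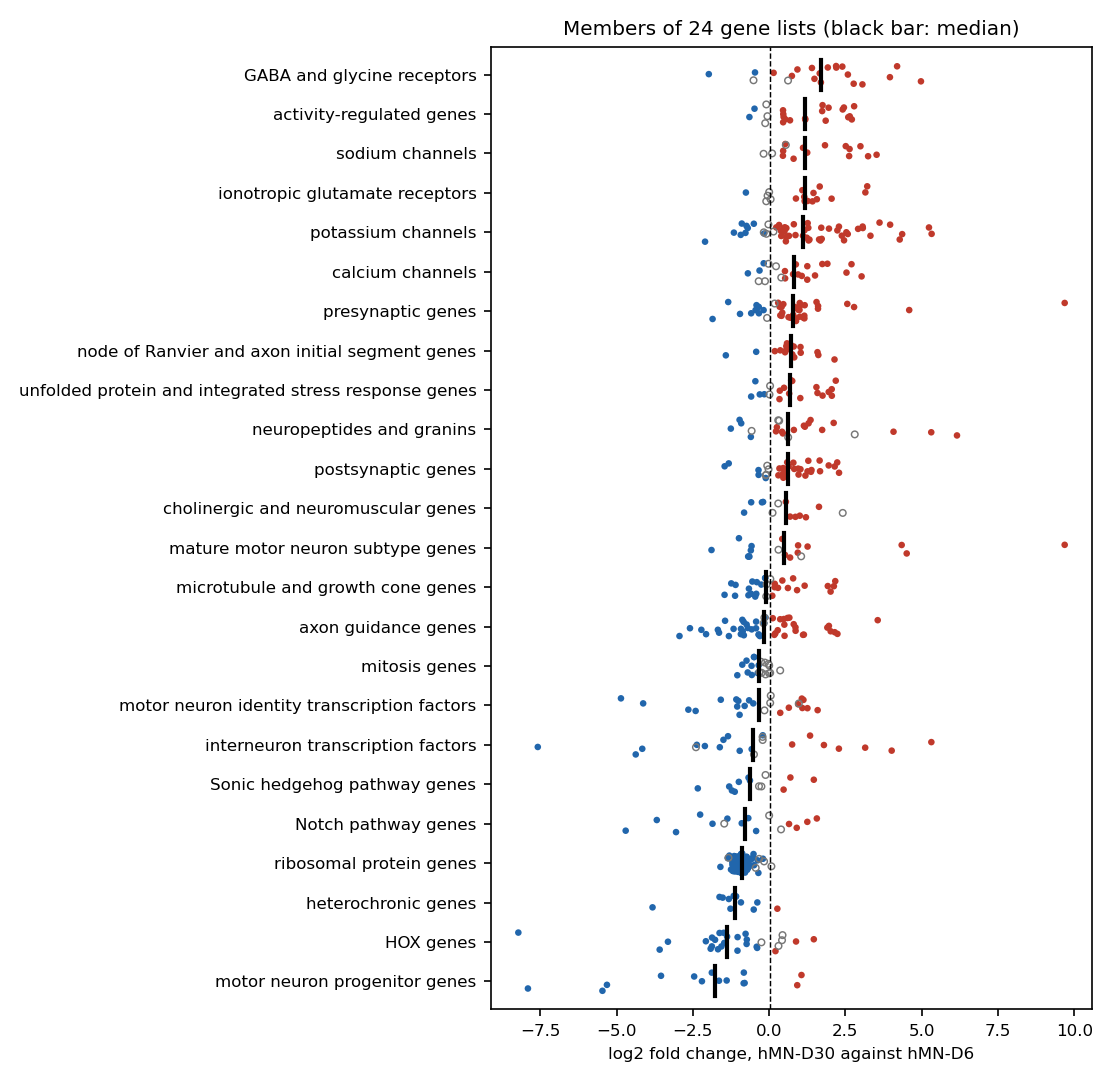
Log2 fold change of hMN-D30 against hMN-D6 (horizontal axis) for the tested members of 24 gene lists (vertical axis). Each point is a gene, filled where its adjusted p is under 0.05 and open where it is not, the black bar is the median of the list and the dashed line the median of all tested genes (0.023). GABA and glycine receptors have the highest median at 1.69 and motor neuron progenitor genes the lowest at -1.76.

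Sodium channels carry the rising phase of the action potential, and most of their genes were higher at day 30. Of 16 tested genes of sodium channels and their partners, 13 were higher (32.9% of all tested genes were) and the other 3 were not called, with a median log2 fold change of 1.18. SCN1A (chr2:165984641-166149214 in hg38, GENCODE v44), an alpha subunit that carries the sodium current, had 4.39, 4.05 and 3.84 CPM in hMN-D6 and 47.5, 46.97 and 46.2 CPM in hMN-D30 (log2 fold change 3.52, SE 0.089, adjusted p = 1.06e-35). For SCN2A, the main axonal subunit of young neurons, the values were 38.7, 43.4 and 41.7 CPM in hMN-D6 and 242, 229.7 and 235 CPM in hMN-D30 (2.51 ± 0.051). The groups did not overlap in either gene. SCN8A, the subunit of mature nodes, rose less, from 59.5 ± 4.85 to 104 ± 0.878 CPM (log2 fold change 0.800), and SCN3A, which predominates before birth, rose least of the called alpha subunits, from 170 ± 7.501 to 232 ± 7.82 CPM (log2 fold change 0.45). The leak channel NALCN went from 5.57 to 44.3 CPM and the beta subunit SCN2B from 1.66 to 15.9 CPM. SCN11A, a subunit of sensory neurons, had 6.702 and 5.91 CPM and was not called.

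Potassium channels set the resting potential and end the action potential. Of 55 tested, 42 were higher and 9 lower, with a median log2 fold change of 1.11. The Kv1 genes KCNA1 (0.215 to 4.22 CPM), KCNA2 (6.997 to 58.8 CPM) and KCNA4 (0.118 to 5.18 CPM), voltage-gated channels found on axons, all rose. KCND3, a subunit of A-type currents, went from 3.54, 4.05 and 4.16 CPM to 32.98, 35.1 and 31.1 CPM (log2 fold change 3.07, SE 0.10, adjusted p = 5.69e-32), and its auxiliary subunit DPP6 from 14.6 ± 0.601 to 84.1 ± 2.35 CPM. KCNK9, a tandem-pore leak channel, rose from 1.76 to 21.7 CPM. KCNC2 (Kv3.2, of fast-spiking cells) rose from 0.673 to 25.5 CPM, with 35.7% of its exonic bases shared with another annotated gene. Lower channels included KCNH2 (476 to 278 CPM), KCNMA1, the large-conductance calcium-activated channel (282 to 169 CPM), and KCNA5 (5.69 to 1.32 CPM). KCNQ3, of the M current, was higher (5.93 to 27.6 CPM, log2 fold change 2.23).

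Among 22 tested calcium channel genes, 14 were higher and 3 lower. CACNA1E, the R-type channel, rose from 60.9, 67.5 and 63.5 CPM to 366, 369.5 and 378 CPM (log2 fold change 2.53, SE 0.053, adjusted p = 6.6e-35). The T-type genes moved apart, with CACNA1I higher (6.299 to 51.98 CPM), CACNA1G higher (16.3 to 54.8 CPM) and CACNA1H lower (355 to 219 CPM). CACNA1A, the P/Q-type channel of mature nerve terminals, rose from 17.3 ± 0.827 to 65.04 ± 2.34 CPM (log2 fold change 1.91), whereas the N-type CACNA1B had 228 and 224 CPM and was not called (adjusted p = 0.726). Node and initial segment genes, which anchor channels on the axon, were higher in 15 of 17 and lower in 2. The spectrin SPTBN4 had the largest rise (21.03 to 92.95 CPM), ankyrin G, ANK3, rose from 339 ± 33.5 to 509 ± 1.704 CPM, and NFASC, neurofascin, fell from 761 ± 63.1 to 567 ± 11.3 CPM.

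**Figure D3:**
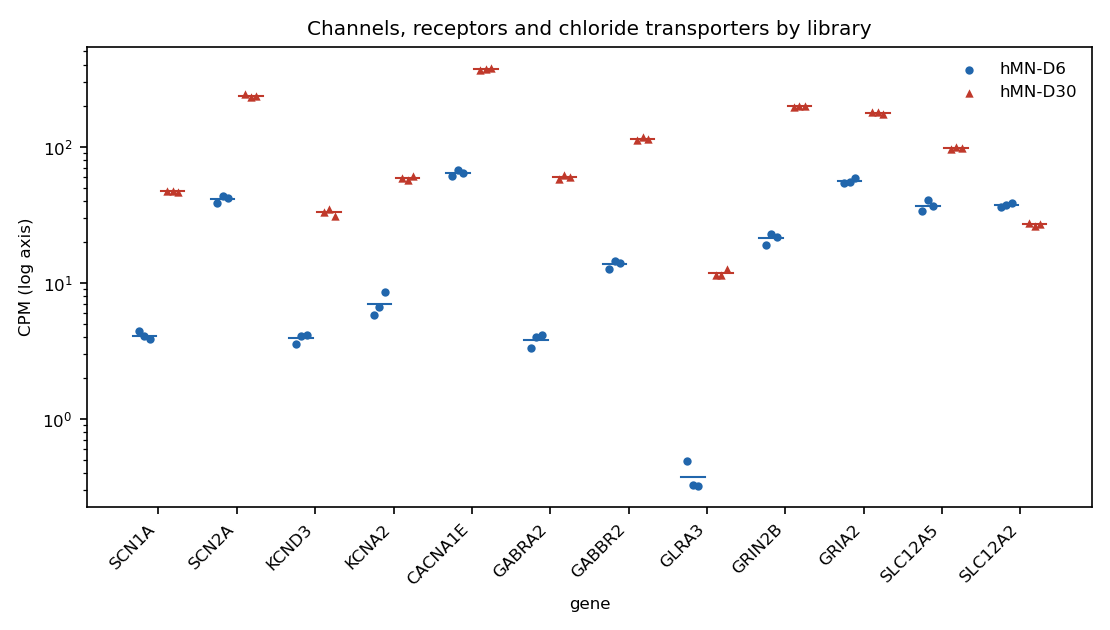
CPM on a log axis (vertical) of 12 channel, receptor and transporter genes (horizontal) in each library, blue circles for hMN-D6 and red triangles for hMN-D30, with a short bar at the mean of each 3. SLC12A2 lies lower in hMN-D30, and the other 11 genes lie higher with no overlap of the groups.

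Inhibitory receptors were mostly higher. Of 21 tested genes of GABA and glycine receptors and chloride transporters, 17 were higher and 2 lower, with a median log2 fold change of 1.69. GABRA2 (chr4:46243548-46475230), an alpha subunit of GABA-A receptors, had 3.29, 4.003 and 4.11 CPM in hMN-D6 and 57.6, 61.3 and 59.8 CPM in hMN-D30 (log2 fold change 3.96, SE 0.093, adjusted p = 4.19e-34). GABBR2, a subunit of the metabotropic GABA-B receptor, had 12.7, 14.4 and 13.98 CPM in hMN-D6 and 112, 118 and 114 CPM in hMN-D30 (3.06 ± 0.061), while its partner GABBR1, all of whose longest transcript also aligns to an alternate contig of hg38, was at or near 0 in all libraries and was not tested. GLRA3, a glycine receptor subunit, rose from 0.488, 0.326 and 0.3202 CPM to 11.4, 11.5 and 12.7 CPM, and GLRA2, the fetal subunit, from 63.6 ± 1.16 to 121 ± 3.84 CPM. GABRD fell from 1.34 to 0.333 CPM. SLC12A5 (KCC2), which exports chloride, rose from 33.7, 40.5 and 36.4 CPM to 95.5, 100 and 97.96 CPM (log2 fold change 1.402, SE 0.057, adjusted p = 1.09e-25). SLC12A2 (NKCC1), which imports it, fell from 35.7, 37.1 and 38.3 CPM to 27.6, 25.98 and 27.01 CPM (log2 fold change -0.46, SE 0.063, adjusted p = 1.02e-08). The 2 chloride transporters therefore moved in opposite directions, each without overlap of the groups.

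Of 18 ionotropic glutamate receptor genes tested, 13 were higher and 1 lower, with a median of 1.17. GRIN2B, the NMDA receptor subunit of early development, rose from 18.9, 22.9 and 21.8 CPM to 194, 199 and 199.9 CPM (log2 fold change 3.21, SE 0.081, adjusted p = 9.09e-20). GRIN2A, the subunit that gains share in mature synapses, rose from 30.6 ± 2.73 to 73.5 ± 1.41 CPM (1.26 ± 0.058), and the obligatory GRIN1 from 40.6 ± 1.44 to 91.04 ± 2.61 CPM. All 4 AMPA receptor genes rose, with GRIA2, which makes the channel impermeable to calcium, at 56.1 to 177 CPM, GRIA1 at 33.4 to 99.1 CPM, GRIA3 at 19.6 to 43.6 CPM and GRIA4 at 72.6 to 154 CPM from hMN-D6 to hMN-D30. Kainate receptor genes were mixed. GRIK2 and GRIK4 rose (log2 fold change 0.88 and log2 fold change 1.42), and GRIK1, GRIK3 and GRIK5 were not called, at 37.1 and 35.9 CPM, 114 and 118 CPM and 93.6 and 87.6 CPM on the 2 days. GRIN2C was the called member that fell, from 4.36 to 2.57 CPM. Of 15 tested acetylcholine receptor genes, 6 were higher and 6 lower, shares near the 32.9% and 30.5% of all tested genes. The ganglionic subunits CHRNA3 (20.8 to 8.595 CPM) and CHRNB4 (10.1 to 3.74 CPM) fell, and CHRNA4 of the central receptor rose (89.8 to 156 CPM), as did the muscarinic CHRM3 (6.52 to 24.2 CPM).

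At the synapse, 30 of 41 tested presynaptic genes were higher and 9 lower, with a median of 0.79. SYT13 (chr11:45240302-45286341), an atypical synaptotagmin, rose from 9.94, 11.4 and 12.3 CPM to 273, 268 and 274 CPM (log2 fold change 4.59, SE 0.054, adjusted p = 1.01e-49). SYT1, the calcium sensor of fast release, fell from 1090, 1131 and 1135 CPM to 310.2, 312 and 306 CPM (log2 fold change -1.85, SE 0.038, adjusted p = 2.5e-39), and another release factor, UNC13B, fell from 364 ± 8.88 to 144 ± 1.96 CPM. Relatives of both moved in either direction. SYT2 (96.5 to 64.2 CPM, 27.03% of exonic bases shared with another gene), SYT4 (863 to 634 CPM) and SYT11 (882 to 696 CPM) also fell, and SYT7 (89.3 to 164 CPM), SYT5 (82.3 to 159 CPM) and UNC13A (229 to 410.2 CPM) rose. SNAP25, a t-SNARE, rose from 147 ± 5.73 to 294 ± 7.13 CPM, synaptophysin, SYP, from 257 ± 13.7 to 493 ± 10.9 CPM, and the active zone scaffold PCLO from 55.7 ± 3.79 to 164 ± 0.589 CPM. SNCB, beta-synuclein, rose from 9.57 to 66.1 CPM. Of 34 postsynaptic genes tested, 25 were higher and 5 lower. LRRTM1, a leucine-rich adhesion protein of excitatory synapses, rose from 7.32 to 34.3 CPM and NRXN2, a neurexin, from 358 ± 25.6 to 936 ± 13.8 CPM. CBLN1, a secreted synapse organiser, fell from 16.7 to 6.09 CPM while its relative CBLN2 rose from 40.2 to 128 CPM. SHANK3, a scaffold of the postsynaptic density, was not called (169.5 and 167 CPM), and DLG4 (PSD-95) rose slightly (289.6 ± 1.91 to 396 ± 17.2 CPM, log2 fold change 0.45).

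Secretory granule genes gave some of the largest gains in abundance. SCG2 (chr2:223596940-223602361), secretogranin II, rose from 48.7, 48.97 and 47.4 CPM to 799.8, 822 and 824 CPM (log2 fold change 4.07, SE 0.046, adjusted p = 4.03e-50). VGF, a neurotrophin-inducible granin, rose from 742, 732 and 701 CPM to 2367, 2460 and 2419 CPM (log2 fold change 1.74, SE 0.043, adjusted p = 3.21e-36), the largest difference in CPM of any called nuclear gene that was higher. Of 23 tested neuropeptides, granins and their processing enzymes, 14 were higher and 4 lower. CARTPT, a peptide precursor, went from 0.244, 0.279 and 0.373 CPM to 11.98, 11.04 and 13.5 CPM. The prohormone convertases moved apart, with PCSK1 higher (114 to 257 CPM) and PCSK2 lower (145 to 74.1 CPM), and SST, somatostatin, fell from 14.1 to 5.9 CPM.

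Genes of other transmitters moved in both directions. The vesicular glutamate transporters SLC17A6 (0.614 to 4.41 CPM) and SLC17A7 (1.32 to 5.53 CPM) rose. GAD1, which makes GABA, rose from 27.02 ± 2.76 to 46.8 ± 3.62 CPM (log2 fold change 0.795), and SLC6A5, the glycine transporter of glycinergic neurons, fell from 13.03 ± 1.21 to 1.71 ± 0.221 CPM (log2 fold change -2.93). Genes of monoamine synthesis were split, with TH higher (3.1 to 10.8 CPM) and DBH (49.6 to 13.7 CPM) and DDC (17.9 to 6.23 CPM) lower.

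Genes whose transcription follows synaptic activity and calcium entry were mostly higher. Of 23 tested, 18 were higher and 2 lower, with a median log2 fold change of 1.18. FOS, a component of AP-1, had 11.3, 9.96 and 10.4 CPM in hMN-D6 and 49.9, 59.7 and 58.04 CPM in hMN-D30 (log2 fold change 2.41, SE 0.071, adjusted p = 7.98e-33). FOSL2, another component, rose from 5.67, 4.14 and 4.91 CPM to 35.98, 31.2 and 33.2 CPM, and JUN from 61.4 ± 2.999 to 139 ± 4.27 CPM. BDNF, also a component of the medium as protein, rose from 4.45, 3.86 and 3.095 CPM to 24.4, 25.7 and 24.2 CPM as a transcript (log2 fold change 2.71, SE 0.10, adjusted p = 3.79e-28), and the orphan receptor NR4A2 from 1.797 to 11.2 CPM. EGR1 (log2 fold change 0.46) and ARC (log2 fold change 0.45) rose by less. JUNB and JUND were not called (25.4 and 23.8 CPM, and 338 and 325 CPM), and DUSP1, a phosphatase that ends MAP kinase signalling, fell from 78.2 to 56.1 CPM.

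VGF is known to be induced through CREB, the factor that binds the cyclic AMP response element, and its promoter is shown because the gene had that largest gain in CPM and sits with the activity-regulated genes that share this element. The 250 bases before its start in the RefSeq table of GRCh38.p14 (chr7:101165570-101165819, minus strand) read 5′ to 3′ as below, with the palindromic element TGACGTCA in capitals, beginning 79 bases before the start. Of 34943 promoters of that length in the table, 1.63% hold these letters, against 3 of the 19 members of the activity-regulated list that the table holds. The first share is over promoters and the second over genes, where a match in any promoter of a gene counts. The units are thus unlike. The list was drawn up from genes known to follow activity, so its share does not bear on the change between the days.
VGF: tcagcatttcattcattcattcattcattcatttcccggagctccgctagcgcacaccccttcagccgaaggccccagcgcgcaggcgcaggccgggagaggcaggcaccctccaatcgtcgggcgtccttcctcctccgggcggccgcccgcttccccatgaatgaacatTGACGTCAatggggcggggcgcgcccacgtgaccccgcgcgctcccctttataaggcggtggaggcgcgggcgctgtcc

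Genes of the integrated stress response, in which ATF4 and DDIT3 drive amino acid and redox genes, also moved. Of 20 tested genes of this and the unfolded protein response, 14 were higher and 4 lower, with a median of 0.69. CHAC1, which degrades glutathione, rose from 13.3, 13.3 and 12.1 CPM to 58.7, 57.96 and 58.98 CPM (log2 fold change 2.18, SE 0.065, adjusted p = 8.63e-33). TRIB3, a pseudokinase target of DDIT3, went from 11.3, 8.84 and 11.3 CPM to 41.6, 39.1 and 39.97 CPM (1.95 ± 0.074), and ATF4 itself from 187 ± 8.203 to 294 ± 4.78 CPM (log2 fold change 0.66). XBP1, of the IRE1 arm, rose from 23.2 to 67.7 CPM. The chaperones of the endoplasmic reticulum moved little, with HSPA5 slightly higher (237 ± 5.49 to 301 ± 9.38 CPM, log2 fold change 0.35), PDIA4 slightly lower (log2 fold change -0.31), and CALR and HSP90B1 not called. In the hSCNPC-P10 progenitors of the same series, CHAC1, TRIB3, ATF4 and XBP1 had means of 27.96, 43.5, 568 and 90.9 CPM, each above its hMN-D6 mean, without a test of that difference.

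The promoters of CHAC1 and ASNS, asparagine synthetase (4.901 to 14.8 CPM, with 49.3% of exonic bases shared with another gene), are shown as examples. Both genes were higher and hold TGATGNAA, the core of the composite element bound by ATF4 with C/EBP factors, given in capitals on either strand. It begins 209 bases before the start of CHAC1 (chr15:40953221-40953470, plus strand) and 68 bases before that of ASNS (chr7:97872409-97872658, minus strand). These letters occur in 3.15% of all promoters of the table and in 4 of 19 members of the list. ATF3 (log2 fold change 1.75) and HERPUD1 (log2 fold change 0.76) hold them too and are not shown. ATF3 rose by more than ASNS (log2 fold change 1.58), so the choice did not follow the size of the change. The members were again counted as genes, with a match in any of their promoters. The list was drawn up from known genes of these responses, so its share does not bear on the change between the days.
CHAC1: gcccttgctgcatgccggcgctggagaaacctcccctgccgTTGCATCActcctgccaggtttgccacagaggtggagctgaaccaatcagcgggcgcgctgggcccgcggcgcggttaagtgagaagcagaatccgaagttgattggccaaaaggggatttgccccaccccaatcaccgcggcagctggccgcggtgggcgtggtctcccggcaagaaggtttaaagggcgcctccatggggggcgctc
ASNS: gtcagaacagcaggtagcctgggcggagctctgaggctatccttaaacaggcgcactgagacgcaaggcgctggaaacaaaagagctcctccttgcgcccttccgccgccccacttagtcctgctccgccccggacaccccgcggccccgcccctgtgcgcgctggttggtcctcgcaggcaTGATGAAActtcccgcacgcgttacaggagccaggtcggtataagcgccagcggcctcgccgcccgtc

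Progenitor and proneural genes accounted for many of the deepest falls. Of 14 tested genes of motor neuron progenitors and neurogenesis, 12 were lower (30.5% of all tested genes were) and 2 higher, with a median log2 fold change of -1.76. NEUROG1, a proneural factor of the neurogenin family, was at 8.66, 9.87 and 7.58 CPM in hMN-D6 and held 2 counts over the 3 hMN-D30 libraries. INSM1, a zinc finger factor of newborn neurons, had 299, 300 and 279 CPM in hMN-D6 and 25.3, 25.7 and 24.4 CPM in hMN-D30 (log2 fold change -3.54, SE 0.053, adjusted p = 1.22e-45), and ST18, another, fell from 126 to 3.16 CPM. SOX11, of immature neurons, remained abundant, at 2086, 2304 and 2315 CPM in hMN-D6 and 876, 854 and 825 CPM in hMN-D30 (log2 fold change -1.39). OLIG2, the factor of motor neuron progenitors, was low on both days (3.93 and 0.851 CPM), and LMO4, a LIM cofactor, was higher (45.2 ± 1.08 to 94.1 ± 4.53 CPM).

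Neural progenitor genes were lower in 15 of 25 and higher in 4. SOX3 (chrX:140502985-140505069), a factor of neural stem cells, fell from 426, 404 and 403 CPM to 6.36, 6.04 and 7.33 CPM (log2 fold change -5.97, SE 0.066, adjusted p = 4.03e-50), and DBX1, which marks p0 progenitors, from 407, 452 and 424 CPM to 14.6, 13.5 and 13.01 CPM. SOX2 (194 ± 4.46 to 45.7 ± 1.75 CPM), the progenitor filament NES (1238 ± 39.9 to 361 ± 8.104 CPM) and PAX6 (48.3 to 3.91 CPM, 26.3% of exonic bases shared with another gene) also fell. FABP7 (13.9 to 17.3 CPM) and PTPRZ1 (27.4 to 36.6 CPM), of radial glia, were slightly higher, a call that PTPRZ1 lost in a fit of the 6 libraries alone (adjusted p = 0.139), and SOX9 was not called (12.6 and 12.3 CPM).

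**Figure D4:**
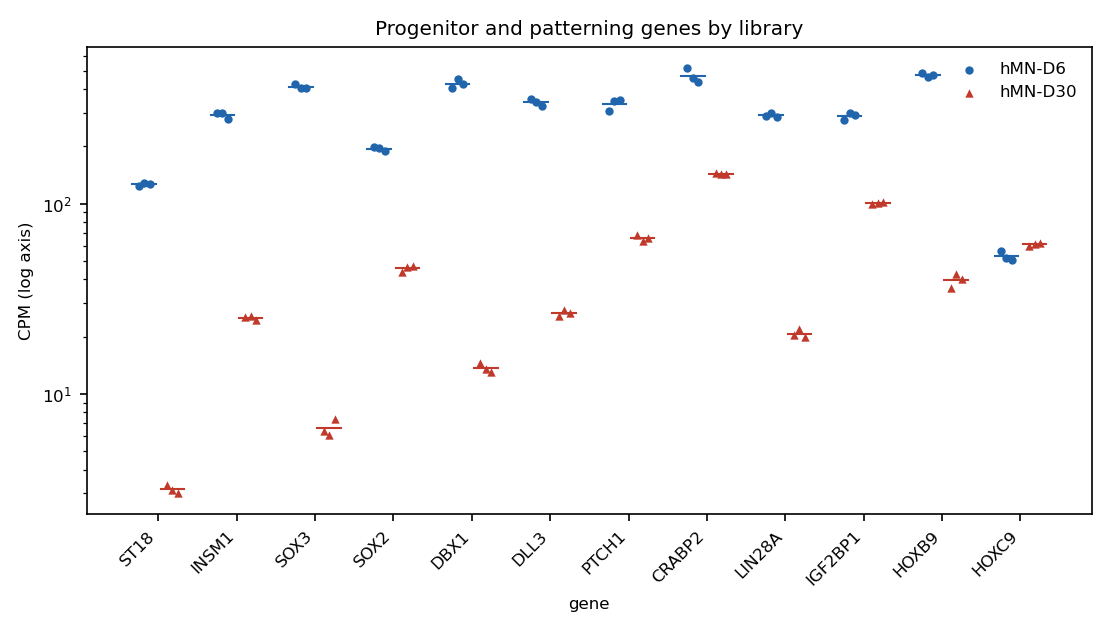
CPM on a log axis (vertical) of 12 progenitor, Notch, HOX, timing and retinoid genes (horizontal) in each library, blue circles for hMN-D6 and red triangles for hMN-D30, with a short bar at the mean of each 3. HOXC9 lies slightly higher in hMN-D30, and the other 11 genes lie lower with no overlap of the groups.

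Of 16 Notch pathway genes tested, 9 were lower and 4 higher, beside 30.5% and 32.9% of all tested genes. The ligands fell in DLL3 (340.3 to 26.5 CPM) and JAG1 (72.6 to 8.77 CPM) and rose in JAG2 (52.9 to 83 CPM). The receptors were likewise apart, with NOTCH1 lower (44.3 to 17.2 CPM), NOTCH2 higher (5.22 to 12.5 CPM) and NOTCH3 not called (36.04 and 36.2 CPM). In the sonic hedgehog pathway, PTCH1, a receptor that is also a target, fell from 305, 345 and 352 CPM to 68.7, 63.5 and 66.2 CPM (log2 fold change -2.34, SE 0.062, adjusted p = 9.47e-23) with Purmorphamine in the medium of both groups. SMO, the protein that Purmorphamine binds, fell from 54.3 ± 3.61 to 24.9 ± 0.953 CPM and GLI2 from 26.02 to 11.2 CPM, while GLI1, the usual readout of pathway activity, was higher at a low level (0.732, 0.745 and 0.3202 CPM and 1.48, 1.23 and 2.32 CPM). PTCH1 and GLI1, both known targets, therefore moved in opposite directions. Retinoic acid binding proteins fell together, with CRABP2 at 468 to 144 CPM and CRABP1 at 3650 ± 429 to 284 ± 7.77 CPM (45.9% of its exonic bases shared with another gene), while ALDH1A2, which makes retinoic acid, rose from 3.64 to 13.8 CPM.

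HOX genes, which set position along the body axis, were lower in 22 of 29 tested and higher in 3, with a median of -1.38 (-0.74 with no filter on low counts). HOXB9, of the thoracic cord, fell from 485, 464 and 473 CPM to 35.9, 42.5 and 40.01 CPM (log2 fold change -3.59, SE 0.052, adjusted p = 3.89e-46) and HOXB8 from 258 ± 9.48 to 25.9 ± 0.407 CPM. HOXC9, its paralogue in another cluster, was slightly higher, at 56.5, 51.9 and 50.5 CPM in hMN-D6 and 59.99, 61.3 and 61.7 CPM in hMN-D30 (log2 fold change 0.21, SE 0.05, adjusted p = 0.000314). HOXC10, of the lumbar cord, was higher too (3.06 to 5.66 CPM), and HOXC6 (48.2 to 14.1 CPM) and HOXB4 (13.2 to 3.12 CPM), of brachial and hindbrain levels, were lower. HOXD10 was near 0 in both groups. Paralogues of group 9 thus differed in direction between clusters.

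Genes that time development were lower in 11 of 12, and DICER1, the processor of microRNAs, was higher (189 to 227 CPM). LIN28A, an inhibitor of let-7 maturation, fell from 289, 300 and 286 CPM to 20.3, 21.8 and 19.8 CPM (log2 fold change -3.82, SE 0.049, adjusted p = 2.65e-48), LIN28B from 112 ± 0.921 to 50.2 ± 0.829 CPM and the mRNA-binding protein IGF2BP1 from 289 ± 13.3 to 101 ± 0.983 CPM. Of 18 tested temporal transcription factors of the cord, 8 were higher and 8 lower, beside 32.9% and 30.5% of all tested genes. The late factors NFIA (0.617 to 3.31 CPM), NFIB (0.5697 to 2.34 CPM) and NFIX (0.122 to 5.79 CPM) rose at low levels, and the early-intermediate factors POU2F2 (138 to 29.3 CPM) and ZFHX3 (93.1 to 33.1 CPM) fell. Interneuron transcription factors were lower in 11 of 22 and higher in 7, the latter near the 32.9% of all tested genes, of which 30.5% were lower. LBX1, of dorsal interneurons, fell from 102 ± 6.01 to 19.8 ± 1.88 CPM and PRDM8 from 145 ± 1.63 to 8.16 ± 0.955 CPM. GATA2 (0.619 to 5.67 CPM) and GATA3 (0.1205 to 5.16 CPM), of V2b interneurons, rose, and GATA3 varied among the hMN-D30 libraries (3.96, 7.63 and 3.88 CPM).

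Cell cycle genes differed less than these. Of 20 mitosis genes tested, 10 were lower and the others were not called, with a median log2 fold change of -0.33 and no change shown to exceed 2-fold. MKI67, the proliferation antigen, had 9.76, 12.4 and 11.6 CPM in hMN-D6 and 9.63, 9.31 and 12.5 CPM in hMN-D30 (log2 fold change -0.12, SE 0.22, adjusted p = 0.668), against 517 CPM in the hSCNPC-P10 progenitors of the same series. TOP2A, the topoisomerase of dividing cells, had 12.9 and 9.26 CPM on the 2 days (adjusted p = 0.0241, a call lost without hMN-D6 replicate 2, hMN-D30 replicate 1 or hMN-D30 replicate 2, at adjusted p values of 0.117, 0.106 and 0.0591) and 556 CPM in hSCNPC-P10. Both cultures thus held these transcripts at levels far under those of the progenitors, and the MKI67 values of the 2 days overlapped. CDC20, an activator of the anaphase-promoting complex, fell from 2.87, 3.96 and 3.73 CPM to 1.18, 1.499 and 2.55 CPM (log2 fold change -1.04, SE 0.24, adjusted p = 0.000683), and CCNB2, a mitotic cyclin, from 2.54 to 1.53 CPM (log2 fold change -0.74). Replication genes were lower in 9 of 18 and higher in 2, the largest fall being that of MCM7 (156 ± 4.25 to 50.2 ± 0.0919 CPM), a helicase subunit. Of the brakes on the cycle, CDKN2D rose from 56.96 to 139 CPM and CDKN1B fell from 123 to 86.4 CPM, and CCND1, cyclin D1, fell from 576 ± 31.8 to 254 ± 10.5 CPM.

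The promoters of CDC20 and CCNB2 are shown because they fell most among the mitosis genes that hold both TTTGAA, the cell cycle homology region, and CCAAT, the box bound by NF-Y, each searched on both strands and given in capitals. CDC20 lies at chr1:43358731-43358980 and CCNB2 at chr15:59104896-59105145, both on the plus strand. Of all promoters in the table, 13.4% hold the first motif, 32% the second and 4.7% both, against 8 of the 16 mitosis genes with a promoter in the table for both. The mitosis genes were counted as genes, with a match in any of their promoters, so the units are unlike. That share belongs to the choice of mitosis genes and does not bear on the change between the days.
CDC20: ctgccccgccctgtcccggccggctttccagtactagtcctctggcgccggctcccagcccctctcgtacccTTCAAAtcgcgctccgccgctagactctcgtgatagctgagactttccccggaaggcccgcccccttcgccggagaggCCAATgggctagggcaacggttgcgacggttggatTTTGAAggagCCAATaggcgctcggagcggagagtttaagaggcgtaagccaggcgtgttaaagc
CCNB2: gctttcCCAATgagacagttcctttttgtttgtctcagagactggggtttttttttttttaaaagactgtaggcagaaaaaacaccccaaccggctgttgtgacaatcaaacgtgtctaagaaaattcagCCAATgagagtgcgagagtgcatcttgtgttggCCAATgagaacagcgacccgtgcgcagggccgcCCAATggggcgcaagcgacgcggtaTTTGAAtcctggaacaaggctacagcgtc

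Genes of axon growth were lower more often than those of the synapse, without a test of that difference. Among 49 guidance genes tested, 21 were higher and 26 lower, beside 32.9% and 30.5% of all tested genes. ROBO3, which permits midline crossing, fell from 72.3, 66.5 and 68.1 CPM to 8.89, 8.72 and 9.37 CPM (log2 fold change -2.94, SE 0.07, adjusted p = 8.11e-37), DCC, the netrin receptor, from 703 ± 53.5 to 225 ± 9.62 CPM, DRAXIN from 256 to 42.3 CPM and CNTN2 from 142 to 33.8 CPM. The netrin receptors UNC5A (9.78 to 38.2 CPM) and UNC5B (22.6 to 84.96 CPM) and the ephrin receptor EPHA5 (17.9 to 72.2 CPM) rose. Of 30 tested microtubule and growth cone genes, 13 were higher and 14 lower, beside 32.9% and 30.5% of all tested genes. TUBA1A, the main alpha-tubulin of young neurons, fell from 7254, 6202 and 6284 CPM to 2881, 3147 and 3175 CPM (log2 fold change -1.101) and STMN1 from 1384 ± 125 to 638 ± 16.4 CPM, while GAP43, of growth cones, rose from 211, 185 and 187 CPM to 713, 754 and 742 CPM (log2 fold change 1.92) and KIF5A, an axonal kinesin mutated in familial motor neuron disease, from 390.5 ± 16.2 to 874 ± 1.998 CPM. TUBB3, used as a neuronal marker, was lower (51.3 ± 3.04 to 18.6 ± 1.57 CPM), with 21.3% of its exonic bases shared with another gene. Neuronal intermediate filaments moved apart, with NEFL (2565 ± 42.5 to 3029 ± 64.3 CPM, log2 fold change 0.24) and NEFH (19.1 ± 1.75 to 31.1 ± 1.19 CPM, log2 fold change 0.69) higher and NEFM (2285 ± 93.5 to 1241 ± 18.6 CPM, log2 fold change -0.88, 26.4% of exonic bases shared), peripherin, PRPH (3.21 ± 0.528 to 1.62 ± 0.0777 CPM, log2 fold change -0.99, 71.5% shared), and INA (log2 fold change -0.18) lower. RBFOX3 (NeuN), a splicing factor of mature neurons, rose from 48.7 ± 0.145 to 116 ± 4.55 CPM (log2 fold change 1.26), and RBFOX1 from 57.1 ± 1.27 to 230.1 ± 6.64 CPM. SRRM4, which drives neuronal microexons, fell from 587 ± 51.5 to 199.9 ± 0.696 CPM.

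The largest falls in abundance included cytoskeletal and translation genes. ACTG1 fell from 6766, 6663 and 6591 CPM to 2983, 3069 and 3165 CPM (log2 fold change -1.12) and the elongation factor EEF1A1 from 5704, 5153 and 5115 CPM to 2580, 2584 and 2760 CPM (log2 fold change -1.01). Of 80 tested ribosomal protein genes, 75 were lower and the others were not called, with a median log2 fold change of -0.88. RPL3 fell from 1268 ± 61.4 to 514 ± 7.98 CPM and RPS6 from 416 ± 46.3 to 138 ± 6.53 CPM. Nuclear genes of the respiratory chain were lower in 28 of 38 and higher in 7, by small amounts (median -0.304), whereas 6 of 13 mitochondrially encoded protein genes were higher and the others were not called. MT-ND1 went from 2256, 2317 and 2132 CPM to 3182, 3978 and 4056 CPM (log2 fold change 0.74), with hMN-D30 replicate 1 lowest of its group, and MT-CO1 was not called (7233 and 7133 CPM). Glycolysis genes moved in both directions, with PFKP higher (26.5 ± 2.62 to 141 ± 5.14 CPM) and SLC2A1, the glucose transporter, lower (112 ± 6.603 to 36.3 ± 1.42 CPM), while the neuronal transporter SLC2A3 rose (69.4 ± 0.835 to 139 ± 1.08 CPM).

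Chromatin regulators were mostly lower. Of 18 tested genes of DNA methylation and polycomb, 13 were lower and 4 higher. DNMT3B, a de novo methyltransferase, fell from 119 ± 5.63 to 35.4 ± 1.81 CPM and EZH2, the methyltransferase of polycomb complex 2, from 51.4 ± 3.26 to 22.4 ± 0.607 CPM, while its homologue EZH1 rose from 42.3 to 59.96 CPM. Of the BAF chromatin remodelling complex, the progenitor subunit ACTL6A fell from 39.6 ± 1.19 to 15.8 ± 0.275 CPM, its neuronal counterpart ACTL6B was not called (107 and 108 CPM), and the ATPase SMARCA4 fell (1310 to 745 CPM) as SMARCA2 rose (20.9 to 57.1 CPM).

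Receptors for the growth factors of the medium differed in direction. NTRK2, the receptor for BDNF, rose from 57.2 ± 4.92 to 139.9 ± 0.847 CPM and NTRK3, for NT-3, from 88.6 ± 9.19 to 162 ± 5.06 CPM. RET, the signalling receptor for GDNF, rose from 24.1, 22.2 and 25.2 CPM to 69.4, 74.6 and 70.9 CPM (log2 fold change 1.59, SE 0.057, adjusted p = 2.42e-29), while its co-receptor GFRA1 fell from 90.04 ± 7.24 to 60.5 ± 2.02 CPM and GFRA2, the co-receptor for neurturin, rose from 14.1 ± 0.221 to 108 ± 1.78 CPM. The transcript of NT-3 itself, NTF3, fell from 44.2, 40.6 and 42.05 CPM to 1.26, 1.86 and 1.42 CPM (log2 fold change -4.799, SE 0.12, adjusted p = 1.27e-35). Of 29 tested genes of amyotrophic lateral sclerosis and spinal muscular atrophy, 13 were higher and 10 lower, beside 32.9% and 30.5% of all tested genes. SOD1 (138 ± 10.9 to 116 ± 3.24 CPM) and TARDBP (97.8 ± 2.84 to 82.4 ± 0.994 CPM) were slightly lower, OPTN (64.3 to 141 CPM) and C9orf72 (35.3 to 48.7 CPM) were higher, and SMN1 and SMN2, near-identical copies whose reads cannot be assigned, had under 1 CPM in each group.

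Several genes outside the lists were among those with the largest change. PTPRT, a receptor phosphatase of neurons, had 1.34, 1.81 and 1.601 CPM in hMN-D6 and 89.2, 93.3 and 92.6 CPM in hMN-D30 (log2 fold change 5.83, SE 0.10, adjusted p = 7.37e-44). OPRM1, the mu opioid receptor, rose from 1.403, 1.49 and 1.601 CPM to 45.1, 47.9 and 56.9 CPM, and PTGFR, the prostaglandin F receptor, from 1.16, 0.652 and 0.907 CPM to 45.7, 45.5 and 45.3 CPM. The calcium sensor VSNL1 (2.81 to 76.1 CPM), SPHKAP, an anchoring protein (0.0788 to 13.9 CPM), and HTR2A, a serotonin receptor (0.165 to 5.47 CPM), rose as well. In the other direction, CASQ2, calsequestrin, had 7.08, 5.63 and 6.72 CPM in hMN-D6 and no count in hMN-D30, at least 143-fold lower against a floor of 3 counts over the group. The lens crystallin CRYBA1 (21.6 to 0.151 CPM), the ETS factor FLI1 (11.5 to 0.257 CPM) and PHOX2A, a factor of visceral and cranial motor neurons (6.93 to 0.0776 CPM), fell.

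Genes of other cell types were measured beside these changes. Of the marker sets, the 5 astrocyte markers summed to 3.82 to 4.38 CPM in hMN-D6 and 10.9 to 14.1 CPM in hMN-D30, with 4 of them higher, and of 15 tested genes in the longer astrocyte list 9 were higher and 3 lower. AQP4, a water channel of astrocytes, rose from 0.06101, 0.186 and 0.107 CPM to 2.18, 1.64 and 1.94 CPM, and GFAP from 0.194 to 0.821 CPM. FGFR3, also on the astrocyte list, fell from 59.9 ± 1.32 to 6.77 ± 2.17 CPM. The 4 oligodendrocyte lineage markers summed to 12.5 to 14.1 CPM and 34.9 to 42.8 CPM, with 2 of them higher. MBP made up most of the sum, with means of 10.5 and 25.1 CPM. SOX10 had 1.71, 2.095 and 3.63 CPM in hMN-D6 and 10.2, 11.3 and 17.6 CPM in hMN-D30. The longer list was mixed. CSPG4 (3.31 to 16.6 CPM) and GPR17 (1.07 to 5.79 CPM) rose. MOBP (6.83 to 0.338 CPM), OLIG2 (3.93 to 0.851 CPM) and OLIG1 (1.98 to 1.11 CPM) fell. SOX10 also marks the neural crest, and 9 of 11 tested genes of neural crest and Schwann cells were higher, ERBB3 with the largest rise (0.662 to 9.25 CPM). NANOG, of pluripotent cells, had 0.0155 and 0.0158 CPM. POU5F1, AIF1 and MOG, the defining genes of pluripotent cells, microglia and oligodendrocytes, were also at or near 0, but all of their sequence also lies on alternate contigs of hg38, so their absence was not shown.

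Mesenchymal genes were highest in a single library, hMN-D30 replicate 3. The 5 markers summed to 49.7 to 56.8 CPM in hMN-D6 and 113 to 377.7 CPM in hMN-D30. COL1A1, collagen I, had 39.04, 43.5 and 37.6 CPM in hMN-D6 and 78.02, 98.8 and 303 CPM in hMN-D30 (log2 fold change 1.99, SE 0.42, adjusted p = 0.000703). Without hMN-D30 replicate 3 its log2 fold change was 1.13 (SE 0.23), and in a fit of the 6 libraries alone its call was lost (adjusted p = 0.0624). COL3A1 had 9.39, 12.2 and 13.3 CPM in hMN-D6 and 32.2, 27.9 and 72.4 CPM in hMN-D30 (log2 fold change 1.902), and 1.35 (SE 0.23) without that library. Of 22 tested genes of mesenchyme and extracellular matrix, 15 were higher and 2 lower, and 13 and 2 without that library. FN1, fibronectin, rose from 65.3, 73.6 and 78.4 CPM to 137, 166 and 417 CPM (log2 fold change 1.72, and 1.06 (SE 0.23) without that library). The channel, receptor and synapse lists gave the counts in hMN-D30 without replicate 3 of 13 sodium channel genes, 17 GABA and glycine receptor genes and 30 presynaptic genes higher, so these did not rest on it. The part of glial, crest and mesenchymal cells in the changes of the bulk samples was not tested.

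Levels on the other sampled days of the series are given as a description, since those libraries entered the same model. SCG2 had means of 48.4, 291, 496, 662, 815 and 1069 CPM on days 6, 12, 18, 24, 30 and 42. GABRA2 stood at 3.802, 23.9, 44.2, 58.6, 59.6 and 53.5 CPM on the same days. The mean of GABRA2 was thus near its day 30 value by day 24, while that of SCG2 was still higher on day 42. INSM1 had 293, 61.03, 30.2, 26, 25.1 and 26.7 CPM. FOS had 10.6, 17.9, 32.9, 50.2, 55.9 and 67.3 CPM, with its highest mean on the last day. MKI67 had 11.3, 12.4, 7.63, 4.48, 10.5 and 30.5 CPM, with the lowest mean on day 24 and the highest on day 42. For the list medians of log2(CPM + 1), sodium channels went from 3.11 at day 6 to 4.25 at day 12, 5.44 at day 24 and 5.40 at day 30, heterochronic genes from 7.38 to 6.86, 6.23 and 5.97, and ribosomal protein genes from 8.35 to 7.74, 7.43 and 7.43.

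**Figure D5:**
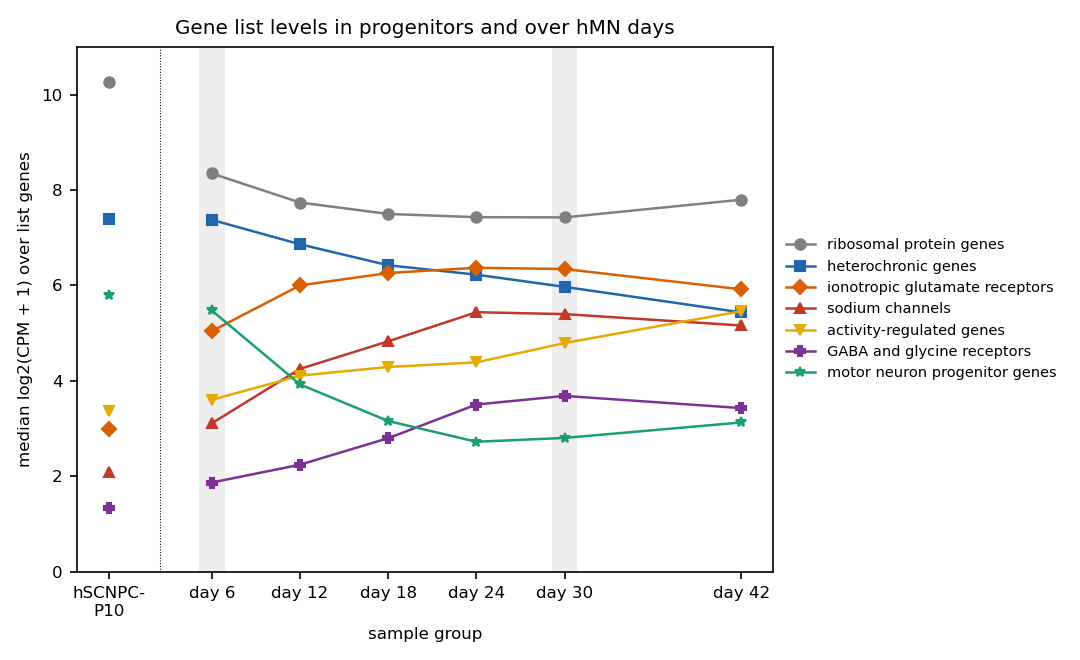
Median log2(CPM + 1) over the tested genes of 7 lists (vertical axis) in hSCNPC-P10 and on days 6 to 42 of hMN differentiation (horizontal axis, hSCNPC-P10 placed apart without a day). Points are medians over genes of the group means of 3 libraries, and shaded bands mark days 6 and 30. Sodium channels rise from 3.11 to 5.40 and motor neuron progenitor genes fall from 5.48 to 2.80 between the 2 days.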

How the data were processed

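RNA of H9-derived motor neuron cultures was extracted with TRIzol and sequenced as paired reads. After trimming by fastp and alignment to hg38 (HISAT2, version 2.1.0), the authors deposited raw counts per gene from featureCounts (version 1.5.3); the annotation release and strand setting are not given in the sources used here. Counts of 60603 gene identifiers were read as deposited, with symbols from GENCODE v44 for 99.44%.

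The comparison used edgeR 4.0.16 (R 4.3.3): filterByExpr, TMM scaling, robust quasi-likelihood fits and Benjamini-Hochberg adjustment, called at 0.05, with 18 hMN and 3 hSCNPC-P10 libraries in a single model that shares its estimate of spread, and glmTreat for a change over 2-fold. The fit was tested on simulated data. The SE is the log2 fold change over the root of F. CPM used TMM-scaled totals. Total counts of the 6 libraries were 16730486 to 21970272, and no 2 libraries were identical. Exons shared with another annotated gene, and transcripts that also align to alternate contigs (minimap2), were marked, since reads that align to several places may be lost there. Promoters came from a RefSeq table. The 57 gene lists and the members were chosen with earlier results of these data known. Genes are named where the study names them for motor neurons, where they have the largest called change of a described list (at least 5 CPM in a group), define a cell type or show mixed directions in it, and where they are among the largest changes in fold or CPM over all genes. Alternatives were RLE scaling, other filters, fewer libraries, DESeq2 1.42.0, limma-voom (limma 3.58.1) and leaving out each library. A few genes are not reported here.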

Additional observations from a re-analysis of the deposited data

How the results depend on the processing

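The counts of called genes stayed within 1.5 times of 13427 under every alternative run, from 12533 (a filter at 1 CPM) to 13648 (no filter), with 12642 by DESeq2 and 13445 by limma-voom. RLE scaling gave 6879 higher and 6559 lower. Leaving out each library in turn gave 12664 to 12863 called genes and 2358 to 2440 over 2-fold. Replicate numbers did not pair the libraries: the correlations of same-numbered deviations were 0.00613, -0.0105 and 0.0243, hMN-D6 replicate 1 correlated best with hMN-D30 replicate 2 (0.0295), and a fit with the replicate number as a block called 13448 genes. Of the described lists, p53 targets held 5 higher genes in place of 8 without hMN-D30 replicate 1, and motor neuron progenitor genes 1 in place of 2 without hMN-D6 replicate 1 or 2 or hMN-D30 replicate 1 or 2. Among named genes, calls were lost for COL1A1 and PTPRZ1 in the 6 libraries alone and for TOP2A with no filter (adjusted p = 0.0505) and in the fits without a library given above, and GRIK5 was called lower under RLE scaling (adjusted p = 0.0401) and in 2 fits of fewer libraries. The sign turned in genes that were not called. NOTCH3 had log2 fold changes of 0.0037 with a filter at 1 CPM and 0.0001 in the 6 libraries alone. Without a library each, the range was -0.2177 to 0.1240 for NOTCH3, -0.0302 to 0.0839 for ACTL6B, -0.0821 to 0.0177 for CACNA1B, -0.0189 to 0.0553 for CALR, -0.0723 to 0.1182 for FOXP1, -0.0170 to 0.1179 for GRIK3, -0.8303 to 2.3113 for HOXD10, -0.0380 to 0.0609 for HSP90B1, -0.0019 to 0.1462 for MNX1, -0.0704 to 0.0313 for MT-CO1, -0.0754 to 0.0301 for SHANK3, -0.5481 to 0.0060 for SMN1 and -0.1324 to 0.0326 for SOX9. The cause was not tested. Precision is limited by 3 libraries of a single line on each day, and depth limits genes under about 1 CPM, where a few counts decide the fold change.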

Other observations

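Genes of cell death and cell defence that the comparison above left out were also measured. Of 15 tested genes of the BCL2 family, which sets the threshold of apoptosis, 5 were higher and 6 lower in hMN-D30, shares near the 32.9% and 30.5% of all tested genes. The survival gene BCL2 rose from 12.1, 12.5 and 12.1 CPM to 32.4, 32.4 and 28.2 CPM (log2 fold change 1.34, SE 0.071, adjusted p = 2.38e-22), and HRK, a killer protein of its BH3-only group, rose from 17.8, 19.9 and 20.2 CPM to 81.2, 74.1 and 71.3 CPM (log2 fold change 1.97, SE 0.072, adjusted p = 7.43e-23). BAX, a pore-forming effector, fell from 64.96 ± 2.32 to 35.7 ± 1.11 CPM, MCL1, a survival member, from 246 ± 2.35 to 150.4 ± 6.37 CPM, and BMF, another BH3-only gene, from 48.1 ± 0.898 to 18.7 ± 1.56 CPM. Of 15 tested targets of p53, 8 were higher and 4 lower, beside the 32.9% and 30.5% of all tested genes. Without hMN-D30 replicate 1, 5 were higher, a share near that 32.9%. CDKN1A, an inhibitor of the cell cycle, rose from 76.8 ± 3.66 to 107 ± 2.33 CPM and ZMAT3 from 26.9 ± 0.162 to 59.1 ± 2.92 CPM. TP53INP1 fell from 76.1 ± 2.77 to 34.8 ± 0.6796 CPM. Interferon response genes were higher in 9 of 16 and lower in 1, beside the 32.9% and 30.5% of all tested genes. IFI6 (4.95 to 18.4 CPM, 23.1% of exonic bases shared with another gene) and ISG15 (12.6 to 4.38 CPM), both classical targets, moved in opposite directions. Of 12 tested heat shock genes, 5 were higher and 6 lower, beside the same 32.9% and 30.5%, with the chaperone HSPH1 at 123 ± 1.89 to 189 ± 3.45 CPM and the co-chaperone BAG3, which fell, at 29.6 ± 1.04 to 19.4 ± 0.715 CPM.

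Lysosome and autophagy genes were higher in 13 of 24 and lower in 4. SQSTM1, an autophagy receptor mutated in motor neuron disease, rose from 68.5 ± 2.03 to 118 ± 3.48 CPM (22.4% of exonic bases shared with another gene), and GRN, progranulin, fell from 90.7 ± 2.26 to 73.04 ± 3.27 CPM. Cholesterol synthesis genes differed by under 2-fold in the estimates, 7 higher and 10 lower of 22. INSIG1, which holds back the sterol sensor, rose from 53.96 ± 1.42 to 91.9 ± 3.67 CPM and the squalene synthase FDFT1 fell from 398 ± 25.9 to 263 ± 10.99 CPM. Among other lipid genes, lipoprotein lipase, LPL, rose from 1.098, 0.884 and 0.8004 CPM to 9.06, 10.1 and 13.9 CPM (log2 fold change 3.57, SE 0.18, adjusted p = 1.07e-23), and the sialyltransferase ST8SIA5 from 3.399 ± 0.133 to 13.1 ± 1.07 CPM. Clustered protocadherins, which give neurons surface identities, were lower in 32 of 51 and higher in 4. Many members share exonic bases with other genes, among them PCDHA2 (56.6%), PCDHA3 (51.8%) and PCDHA4 (21.4%). These calls are therefore not measures of fully separate genes. PCDHAC2 rose from 2.93, 3.07 and 4.002 CPM to 16.6, 16.4 and 16.6 CPM (log2 fold change 2.31, SE 0.12, adjusted p = 5.57e-23), but 46.9% of its exonic bases are shared with its neighbours in the cluster, so its reads may be split among them. CDK5R2, a neuronal activator of CDK5, rose from 30.01, 31.2 and 31.5 CPM to 108, 111 and 110.1 CPM (log2 fold change 1.83, SE 0.05, adjusted p = 2.2e-34).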
